A study of Mus musculus with 2 samples.

Results

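The cytosolic ribosomal protein genes encode the proteins of the ribosome that works in the cytoplasm. They were chosen by name alone: protein-coding genes called Rpl or Rps with a number and at most 1 further letter, together with Rpsa, Rplp0, Rplp1 and Rplp2. The Rps6k kinases and the pseudogenes were left out. The rule found 80 genes among 21938 protein-coding genes of the mouse annotation. Open chromatin was measured by DNase-seq, in which the nuclease DNase I cuts accessible DNA in isolated nuclei and the cut sites are sequenced. The tissue was the whole adrenal gland of female B6CASTF1/J mice aged 36 days, first-generation hybrids of C57BL/6J and CAST/EiJ, with no treatment named in the labels. There were 2 libraries, biological replicates 1 and 2 of a single group; the labels number the animals differently and give them the same donor record. With 1 group there was no contrast between conditions, so every value is a level in each library and no test across conditions was made.

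Each ribosomal subunit is ribosomal RNA clothed in small basic proteins, nearly all present in a single copy, so cells make them in matched amounts. The small subunit reads the messenger RNA, and the large subunit joins amino acids and feeds the new protein into its exit tunnel. The genes are used in every cell type, among them the steroid-making cells of the adrenal cortex, and their promoters are known for initiation within a pyrimidine tract, the start of the TOP sequence through which mTOR and Larp1 control translation of these messages. For each gene and library the tallest peak reaching within 1 kb of any annotated transcription start site (TSS) was taken as its promoter peak, and a gene with no such peak was given a height of 0. Heights are the authors' signal, scaled by them before deposit.

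A total of 60 members had an entry in the RefSeq promoter table. For members among these, short stretches under the promoter peaks were read from RefSeq's GRCm38.p6 genome, which carries the coordinates of mm10, and are printed 5′ to 3′ on the strand of the gene. Among the 20 members without an entry are Rps29, Rpl36, Rps27a, Rps20, Rpl21, Rpl30, Rpl17, Rplp1, Rpl23a, Rps14, Rpl3, Rpl32, Rpl7, Rpl29 and Rpl8, for which no sequence is printed. The first set shows the element TCTCGCGA, the search word with the largest ratio between the members' share and that of all genes. It stood within the tallest peak of 13 members. Capitals mark the element on either strand, and run on to 10 bases where the palindrome TCTCGCGAGA holds it on both strands.
Rpl7a at chr2:26910745-26910772, plus strand: gggcgcctgcTCTCGCGAtatctgcggc
Rpl10a at chr17:28328524-28328551, plus strand: aacgggcaacTCTCGCGAGAacgcgggc
Rpl12 at chr2:32961648-32961675, plus strand: ggccagcggtTCTCGCGAGAgctgagct
Rps6 at chr4:86857399-86857426, minus strand: ccggctgtTCTCGCGAGAacttagagcg
Rps28 at chr17:33824544-33824571, minus strand: gcgtgcggTCTCGCGAGAgcgaaagtga
Rps15a at chr7:118116196-118116223, minus strand: gaccatgaagTCTCGCGAtagcgcttcc
Rps7 at chr12:28635879-28635906, minus strand: tgagccgtTCTCGCGAGAgccgtccctc
Rpl27a at chr7:109519164-109519191, plus strand: gcctgctaccTCGCGAGActtcgtgagc
Rps19 at chr7:24884140-24884167, plus strand: tatctcttggTCTCGCGAatgctaatgc
A footprint is a short stretch protected from cutting within open chromatin. Here and below, a word counts as covered, or under a footprint, if a footprint overlapped any of its bases. The element was covered in both libraries at Rpl7a, Rpl10a, Rpl12, Rps6, Rps28 and Rps15a. At Rps7 it was covered in replicate 2 alone, and at Rpl27a and Rps19 in neither library.

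The second set shows CCGGAAG, the core recognised by ETS factors, which lay inside the tallest peak of 29 members in replicate 1 and of 30 in replicate 2. It was under a footprint in 16 of the 29 and in 20 of the 30. Members of high, middle and low peaks are shown, covered and uncovered, with the core in capitals on the strand where it reads CCGGAAG or CTTCCGG.
Rpl37 at chr15:5116580-5116606, plus strand: ccaagacccgCCGGAAGtagtttcctg
Rpl15 at chr14:18271032-18271058, minus strand: caatgccccaCCGGAAGgagggtcgcc
Rpl31 at chr1:39367849-39367875, plus strand: tccccgtgacCCGGAAGttgtacggct
Rps21 at chr2:180257281-180257307, plus strand: tttctttgcaCCGGAAGcggaagttaa
Rps2 at chr17:24719926-24719952, plus strand: tttatacgtcCTTCCGGctggtgtagg
Rps18 at chr17:33955724-33955750, minus strand: gaagcaatttCCGGAAGtggacctccg
Rps25 at chr9:44407631-44407657, plus strand: acccattgccCCGGAAGtactctctcg
Rpl41 at chr10:128549208-128549234, minus strand: agtaaggcagCCGGAAGtcgctgtctc
Rpl6 at chr5:121204503-121204529, plus strand: tgcttatagaCCGGAAGccgctgcctt
Rps4x at chrX:102189323-102189349, minus strand: tcttcgttcgCCGGAAGaaggcgagtc
Rpl34 at chr3:130730323-130730349, minus strand: tccttttcctCTTCCGGggacggtgct
Rpl19 at chr11:98026661-98026687, plus strand: cttagcgtgaCTTCCGGctacccagag
Rpl38 at chr11:114668550-114668576, plus strand: ggttaaccgtCCGGAAGcggaagcctc
The core was under a footprint in both libraries at the printed sites of the first 9 genes, from Rpl37 to Rpl6. At those of Rps4x, Rpl34, Rpl19 and Rpl38 it was under none in either library.

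The third set holds the full cyclic AMP response element TGACGTCA, in capitals, found in the tallest peak of 6 members.
Rpl27a at chr7:109519088-109519115, plus strand: ccgggagccgTGACGTCAggagcccttc
Rpl13 at chr8:123102316-123102343, plus strand: cgggttcgcgTGACGTCActtccctttc
Rps9 at chr7:3703974-3704001, plus strand: cggtgcgtgaTGACGTCActacaaggcg
Rpl4 at chr9:64172918-64172945, plus strand: gcccagacaaTGACGTCAgaggccatga
Rpl26 at chr11:68901422-68901449, plus strand: ctccgagggaTGACGTCAggacccctcg
Footprints covered it in both libraries at Rpl27a, Rpl13, Rps9 and Rpl4. At Rpl26 it was covered in neither. The printed sites of Rpl4 here and of Rpl7a, Rpl12, Rpl15 and Rps25 above lie in peaks centred nearer to another gene's start.

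The fourth set gives 100 bases upstream of a start site for a widely used gene and for a pair of paralogs without a peak in either library, with each CpG dinucleotide in capitals.
Rpl10 at chrX:74270716-74270815, plus strand: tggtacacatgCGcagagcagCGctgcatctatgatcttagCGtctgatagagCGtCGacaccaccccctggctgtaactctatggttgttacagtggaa
Rpl10l at chr12:66284402-66284501, minus strand: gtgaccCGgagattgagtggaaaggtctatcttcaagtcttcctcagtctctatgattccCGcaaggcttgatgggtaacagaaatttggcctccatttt
Rpl39l at chr16:10170128-10170227, plus strand: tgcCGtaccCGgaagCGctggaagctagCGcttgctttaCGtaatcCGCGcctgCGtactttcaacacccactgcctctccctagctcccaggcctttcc
Rpl10 had 5 CpGs in this stretch and peaks of 6.69 and 9.77. Rpl10l had 2 CpGs and Rpl39l had 8, and neither had a promoter peak. An upstream stretch with many CpGs was therefore found without a peak.

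Nearly all ribosomal protein genes had an open promoter in both animals. A promoter peak was present for 78 of 80 members (97.5%) in replicate 1, beside 68.6% of all protein-coding genes. In replicate 2 it was present for 77 (96.2%), beside 69.6% of all genes. The same 77 had a peak in both libraries, against 67.4% of all genes. The median promoter height over the 80 members was 10 in replicate 1 and 15.9 in replicate 2. Over all protein-coding genes it was 2.97 and 4.46, so that the members' median was 3.42 times that of all genes for the mean of the libraries. Genes without a peak entered these medians as 0. Among genes with a peak in both libraries the medians lay closer, at 10.5 and 16.1 for the 77 members and at 7.13 and 10.6 for all genes, a ratio of 1.46 by the mean of the libraries. Each of the 77 members with peaks stood above the median of all genes in both libraries, which is 96.2% of the 80 members. The same held for 49.0% of all genes and 98.7% of the mitochondrial ribosomal protein genes. For Rpl4 it rested on a peak nearer to the start of Zwilch. The peak at the start of Rpl4 itself, at 1.81 and 2.36, was below both medians. Rpl23a was only just above the median in replicate 2, with 4.48 beside 4.46.

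Most of that distance is also found at other genes with CpG-rich promoters. The CpG ratio is the number of CpG dinucleotides in the promoter, here 250 bases before to 50 after the main start, over the number expected from its C and G content. Its median was 0.820 in the members and 0.549 in all genes, while GC content was close to equal, 55.5% and 55.7%. Among the 10146 protein-coding genes with a ratio of at least 0.6, the median heights were 8.99 and 13.5. In that group 82.2% stood above the median of all genes in both libraries. A peak in both libraries was present for 96.4% of that group, beside 96.2% of the members. The ribosomal protein genes were thus close to other CpG-rich genes in the share with a peak, and 61 of the 77 members with peaks met the same limit themselves. A total of 16 members (20%) were in the top 10% of genes by height in both libraries, beside 16.9% of the CpG-rich genes and 8.79% of all genes. Across members, height followed the CpG ratio weakly (Spearman's rho 0.27 across 77 genes of the same libraries), and less than across all 14797 genes with peaks (0.45).

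**Figure D1:**
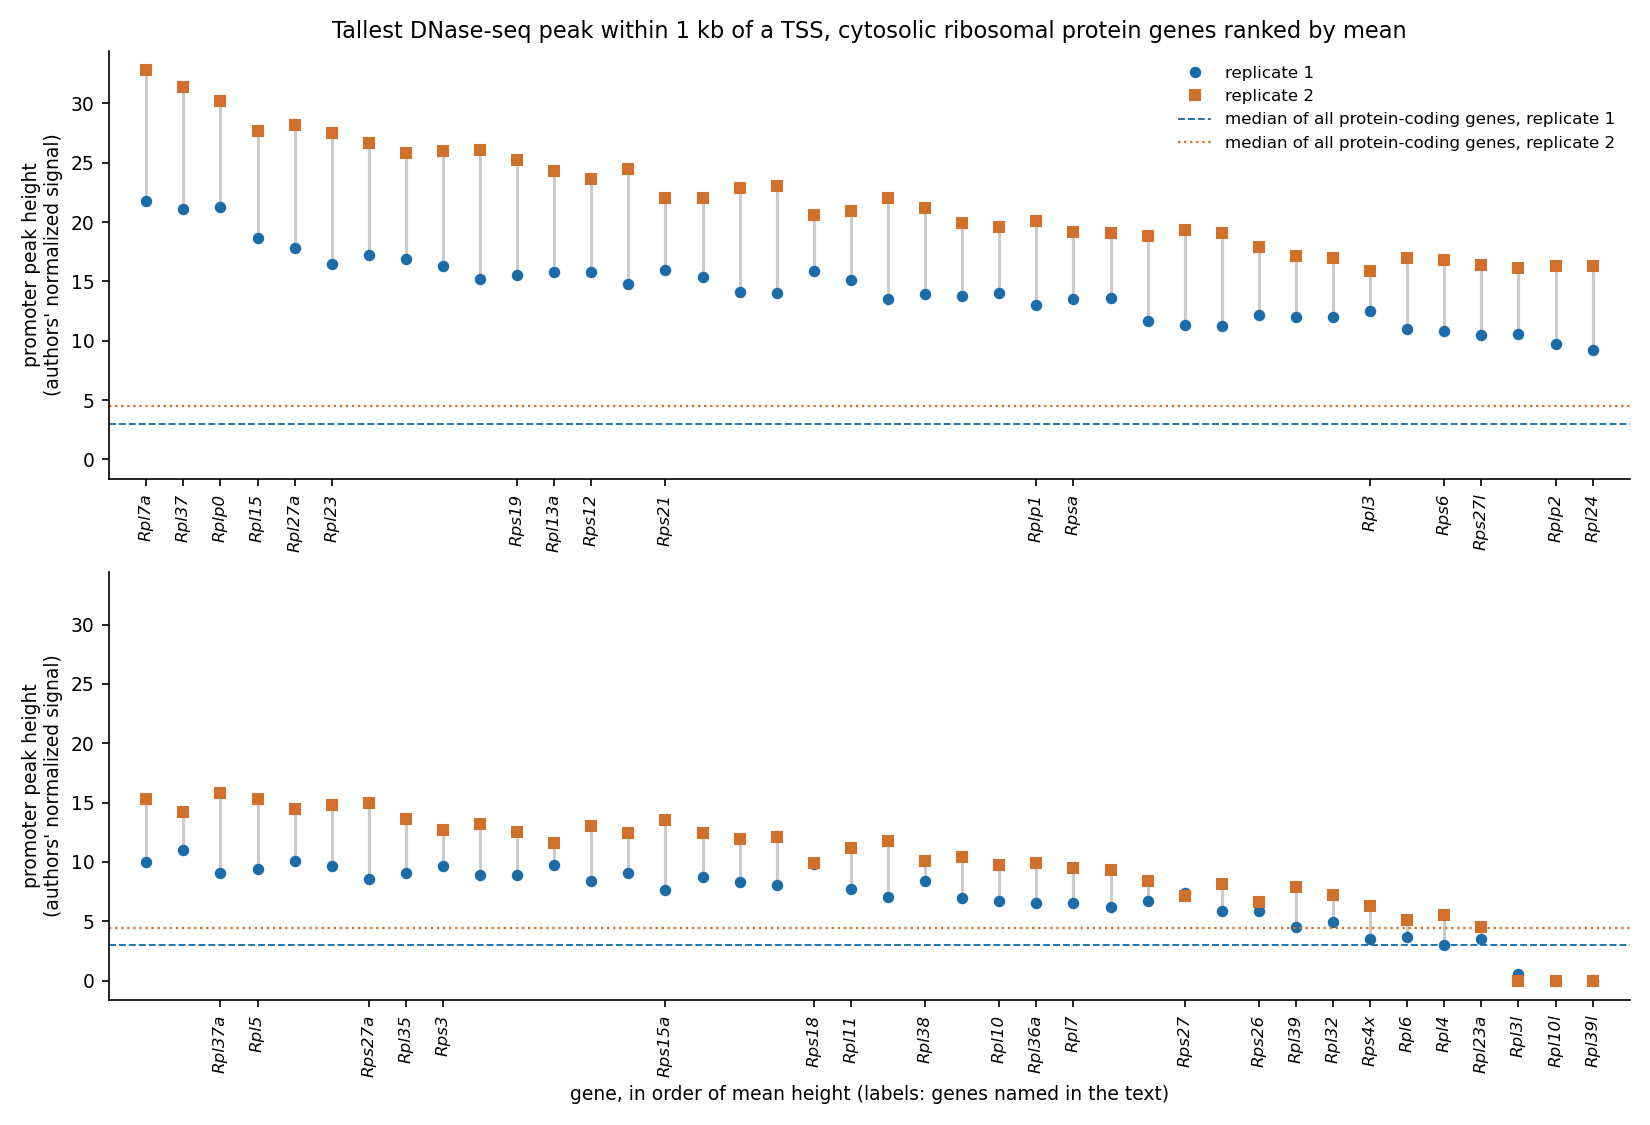
Height of the tallest promoter peak (authors' normalized signal, y axis) for each of the 80 ribosomal protein genes (x axis, ranked by mean, with some of the genes labelled), with circles for replicate 1, squares for replicate 2 and grey lines joining the pair. Dashed and dotted lines mark the medians of all protein-coding genes, 2.97 and 4.46; Rpl7a leads at 21.8 and 32.8, and Rpl3l, Rpl10l and Rpl39l stand at or near 0.

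The tallest promoter peak was that of Rpl7a, a large-subunit protein, at 21.8 in replicate 1 and 32.8 in replicate 2 (chr2:26910581-26910800 in replicate 2, mm10). Its centre lay at -64 and -74 bp from the Rpl7a start but 23 and 13 bp from that of Med22, a Mediator subunit gene read the other way. The height therefore belongs to a shared promoter. Rpl37, also of the large subunit, followed with 21.1 and 31.4 (chr15:5116341-5116600 in replicate 2), with no other protein-coding start within 1 kb. Rplp0, the base of the ribosomal stalk, had 21.3 and 30.2 (chr5:115559281-115559480 in replicate 2). Rpl15 had 18.7 and 27.7, with a centre 16 bp from the start of Nkiras1. Rpl27a (17.8 and 28.2) and Rpl23 (16.5 and 27.5) completed the 6 tallest, all of which encode large-subunit proteins.

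The lowest members with peaks in both libraries were also mostly of the large subunit. Rpl23a had 3.49 in replicate 1 and 4.48 in replicate 2. Rpl4 had 3.04 and 5.57, from a peak at -455 bp, upstream of its start, that lay 26 bp from the start of Zwilch, a kinetochore gene. The peak at the start of Rpl4 itself was lower, at 1.81 and 2.36. Rpl6 had 3.68 and 5.15, and the X-linked Rps4x had 3.55 and 6.31. Rpl32 (4.90 and 7.20) and Rpl39 (4.52 and 7.91) were the next. From lowest to highest mean, the 77 genes spanned 6.85-fold. The 2 subunits overlapped almost wholly: the 31 small-subunit genes with peaks had medians of 10.8 and 16.8, and the 46 large-subunit genes 9.86 and 15.6.

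Among genes of the small subunit, Rps6, the substrate of the S6 kinases downstream of mTOR, had a peak of 10.8 in replicate 1 and 16.8 in replicate 2. Rps3, at the entry of the messenger RNA channel, had 9.66 and 12.7. Rpsa, which also occurs as a laminin receptor, had 13.5 and 19.2. By mean height Rpsa was 26th, Rps6 36th and Rps3 49th of the 80 members. Rps19, mutated in Diamond-Blackfan anaemia, was higher with 15.5 and 25.2. Rps27a, made as a fusion with ubiquitin, had 8.53 and 15, with a centre 40 to 50 bp from the start of Clhc1. That start was nearer to the centre than the start of Rps27a in replicate 1.

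Of the large subunit, Rpl5 had 9.40 and 15.3 and Rpl11 had 7.71 and 11.2; their products bind Mdm2 together when ribosome assembly fails. Rpl38, which is needed for the translation of Hox messages, had 8.38 and 10.1. Rpl13a, whose product can leave the ribosome and silence inflammatory messages, had 15.8 and 24.3. The stalk recruits the translation factors, and its base Rplp0 was higher than its side proteins. Rplp1 had 13.0 and 20.1, and Rplp2 had 9.71 and 16.3. The order Rplp0, Rplp1, Rplp2 was the same in both libraries.

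The only members without a peak in both libraries were 3 paralogs that mouse tissues use narrowly. Rpl3l replaces Rpl3 in heart and skeletal muscle. It had a peak of 0.598 and 88 bp in replicate 1 and none in replicate 2, whereas Rpl3 had 12.5 and 15.9. Rpl10l and Rpl39l replace the X-linked Rpl10 and Rpl39 in male germ cells, and neither had a peak in these female glands. Rpl10 stood at 6.69 and 9.77, and Rpl39 at 4.52 and 7.91. The fourth paralog, Rps27l, a Trp53 target, was open: it had 10.5 and 16.4, higher than its partner Rps27 with 7.41 and 7.16. The Rps27 peak was centred 5 bp from the start of Rab13 in both libraries, nearer than to the start of Rps27. Rps4l, the partner of Rps4x, is a transcribed processed pseudogene in the annotation and so is no member. At the main start of these 3 paralogs the CpG ratio was 0.0893 for Rpl3l, 0.643 for Rpl10l and 0.827 for Rpl39l. The Rpl3l peak of replicate 1 lay at another annotated start of the gene.

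The 4 X-linked members were low as a group. Rpl10 had 6.69 and 9.77, and Rpl36a had 6.51 and 9.94. With Rpl39 and Rps4x, their medians were 5.52 in replicate 1 and 8.84 in replicate 2. The 73 autosomal members with peaks had medians of 10.8 and 16.3. Ranges overlapped, since autosomal members reached down to 3.04 and 4.48. The same direction held for all genes with peaks in both libraries: medians were 3.63 and 5.29 for 466 X-linked genes and 7.39 and 10.9 for 14331 autosomal ones. Rpl10, Rpl36a and Rpl39 were above the X-linked medians in both libraries, and Rps4x was just below in replicate 1 and above in replicate 2. No test was made with 4 genes.

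Replicate 2 had higher peaks than replicate 1 throughout. Over the 77 members the median log2 ratio of replicate 2 to replicate 1 was 0.58, a 1.5-fold difference, and over all genes with peaks in both it was 0.57. The SD of the log2 ratio was 0.17 in members and 0.28 in all genes. It was 0.21 in CpG-rich genes, 0.18 in the mitochondrial ribosomal protein genes and 0.15 in the translation factors listed below. The small spread was thus not seen in the members alone. Of the members, 76 were higher in replicate 2, as were 96.4% of all genes. The order of the members was nearly the same in both libraries (Spearman's rho 0.967, Pearson's r of log2 heights 0.965, across 77 genes, which are not independent replicates). Of all genes 1.07% lay over 1 log2 unit from the general shift. By tallest peaks, no member was over 1 unit from the members' median ratio, and 2 were over 0.5, a limit not counted in all genes. These were Rps27, the single member whose tallest peak was not higher in replicate 2 (log2 ratio -0.05), and Rps18, with 9.84 and 9.90 (0.01). Next came Rps26, with 5.91 and 6.61, which are heights of different peaks. Its peak near the start had 5.91 in replicate 1 and 3.85 in replicate 2. The counts above thus hold for tallest peaks only. In the other direction Rpl4 (log2 ratio 0.87), Rps4x (0.83) and Rps15a (0.82, level with Rpl24) were the furthest from the shift, by 0.29 at most.

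**Figure D2:**
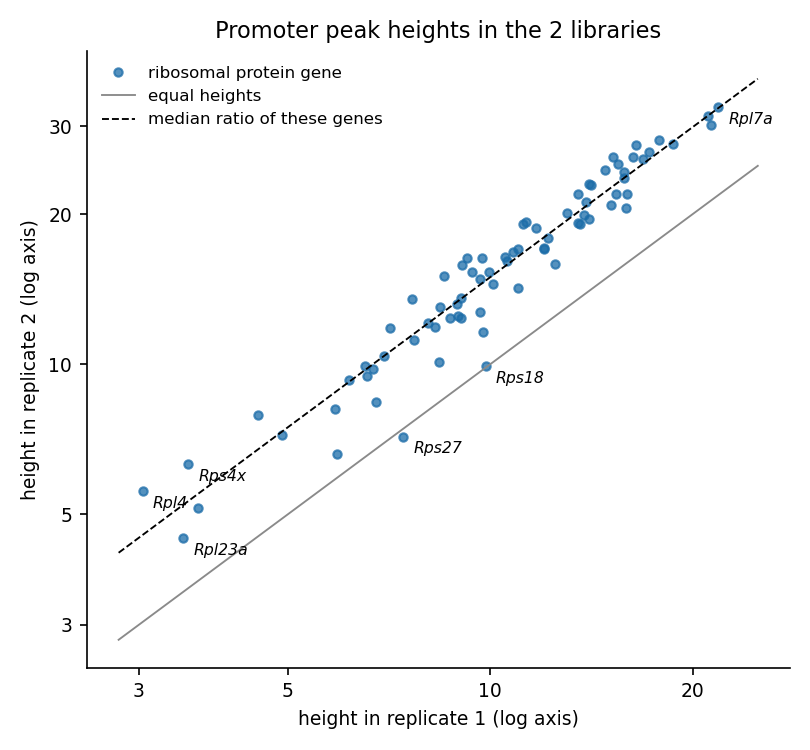
Promoter peak height of each of the 77 ribosomal protein genes with peaks in both libraries, replicate 1 on the x axis and replicate 2 on the y axis (authors' normalized signal, log axes). Points follow the dashed line of the median ratio, 1.5-fold, and Rps27 and Rps18 lie on the line of equal heights.

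The promoter peaks sat at the start sites more tightly than in the general run of genes. The median offset of the peak centre from the nearest TSS was -28 bp in replicate 1 and -32 bp in replicate 2, with negative values upstream, beside -34 and -33 bp in all genes with peaks. The centre was within 100 bp of a TSS for 81.8% of the members in each library, beside 64% and 64.6% of all genes and 69.5% and 70.2% of the CpG-rich genes. The mitochondrial ribosomal protein genes had 83.3% and 82.1%, so that the tight placement was not seen in the cytosolic set alone. The centre was upstream in 55 and 49 of the 77 members (71.4% and 63.6%), beside 70.4% and 69.8% of all genes. A TSS was inside the peak in both libraries for 64 members (83.1%), beside 63.8% of all genes. The peaks of the libraries overlapped for 75 members (97.4%), beside 95.9% of all genes. Centres were within 20 bp for 69 members, a count not made for all genes. The exceptions to overlap were Rps26 and Rps23, where different neighbouring peaks were the tallest. At Rps23 the centre was at 162 bp in replicate 1 and at -98 bp in replicate 2.

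For 5 members the tallest peak was over 250 bp from any TSS in a library, which was the case for 19.6% of all genes. The farthest were Rpl4 (-455 bp in both), Rpl35 (444 bp in both) and Rpl7 (-348 bp in both). Rpl7 had several peaks of like height, in replicate 1 with 6.55 at -348 bp, 6.49 at -108 bp and 5.04 at 242 bp. In replicate 2 the heights were 9.48 at -348 bp, 8.93 at -98 bp and 8.80 at 242 bp. The choice of its tallest peak thus rested on small differences. Rps19 had 15.5 at -261 bp and 11 at 19 bp in replicate 1, and 25.2 at -261 bp and 19.4 at 99 bp in replicate 2. Rps26 was the only member of the 5 whose tallest peak was near the start in one library (-83 bp in replicate 1) and far in the other (267 bp in replicate 2).

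Peak width set the members apart little. The median was 200 bp in both libraries, as in all genes with peaks, and the members ranged from 120 to 360 bp in replicate 1 and from 120 to 400 bp in replicate 2. The widest were Rps21 (360 bp in both), Rpl13a (220 and 400 bp) and Rps18 (300 and 320 bp). The stretch of open positions was also measured, as the bases within 1 kb of the main TSS that the authors list with a false discovery rate under 0.05. Its median over the 80 members was 1019 bp in replicate 1 and 1048 bp in replicate 2, beside 587 and 668 bp in all genes. CpG-rich genes had 1037 and 1101 bp, close to the members. Rpl17 had 0 bp despite peaks of 9.96 and 15.3, because its main start lies away from its peak.

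Footprints were found in every member peak of the 77, whereas 3.43% and 2.60% of all genes with peaks had none. Of the CpG-rich genes with peaks 1.45% and 0.88% had none, and every mitochondrial ribosomal protein gene had at least 1. The median number in the tallest peak was 5 in replicate 1 and 4 in replicate 2, beside 4 in both for all genes, and the means were 4.70 and 4.51 beside 4.02 and 4.01. CpG-rich genes had means of 4.47 and 4.45. Most footprints were at Rpl37a (8 and 7), Rps18 (6 and 9) and Rps12 (7 and 7). Footprints covered a median of 30.8% and 35.8% of the member peaks, beside 27.3% and 31% in all genes. CpG-rich genes had 30.6% and 33.9%, and the mitochondrial ribosomal protein genes 32.5% and 36.3%, close to the members. Of 362 footprints in the member peaks of replicate 1, 296 (81.8%) overlapped one in replicate 2, against 77.1% in all genes.

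Cover by footprints was highest near the centre of the peak. At the centre, 45.5% of the 77 members had the base under a footprint in replicate 1 and 49.4% in replicate 2, beside 39.4% and 42.3% of all genes. At 75 bp downstream the members had 37.7% in both libraries, where all genes had 24.1% and 26.9%. At 100 bp upstream they had 28.6% and 24.7%, and all genes 18.8% and 21.8%. At 150 bp downstream the members were lower, with 2.60% in both libraries beside 6.13% and 7.08%. With 77 genes a single gene moves such a share by more than 1 percentage point, and neighbouring bases share footprints.

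**Figure D3:**
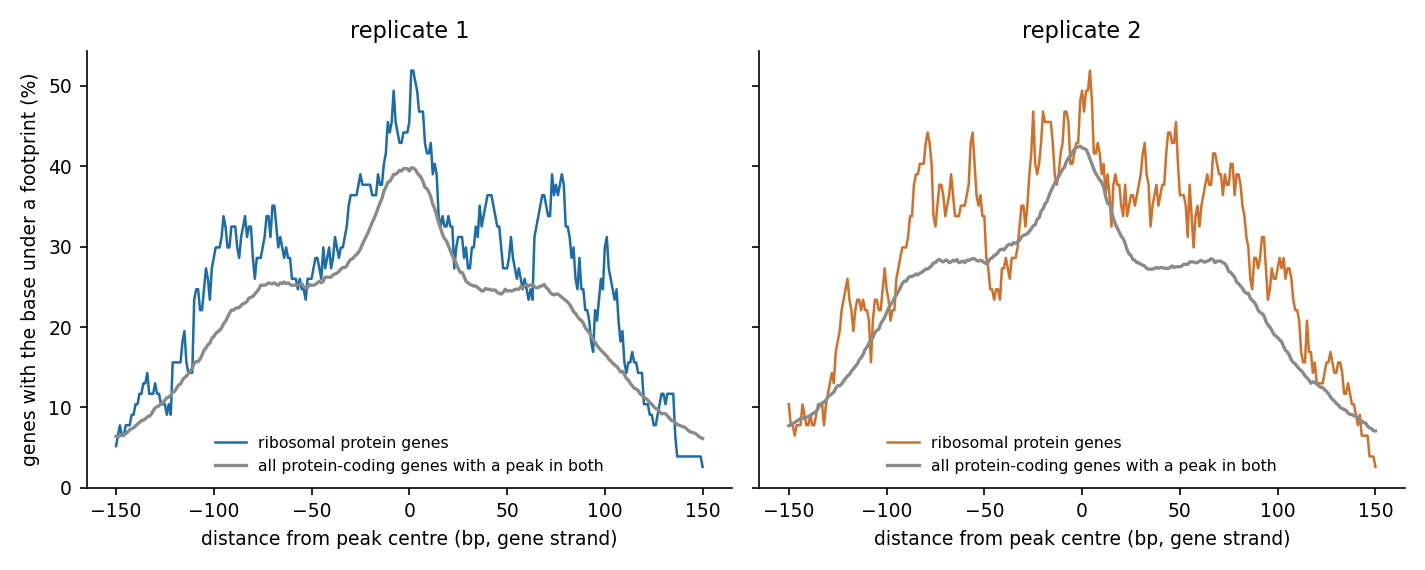
Share of genes (y axis, %) with a footprint over each base from 150 bp upstream to 150 bp downstream of the centre of the tallest promoter peak (x axis, gene strand), replicate 1 left and replicate 2 right. Coloured lines are the 77 ribosomal protein genes and grey lines all 14797 protein-coding genes with peaks in both; the coloured lines lie mostly above the grey ones between -100 and 100 bp, as at 75 bp with 37.7% in both libraries.

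Short search words were counted on both strands in the promoter window of 250 bases before to 50 bases after the main start. A match is a description of the sequence and no evidence of binding. TCTCGCGA stood in 11 of 80 member promoters (13.8%, 95% Wilson interval 7.85% to 23.0%), in 1.39% of all promoters and in 1.91% of those with a peak in both libraries. The ETS core CCGGAAG stood in 24 (30%, interval 21.1% to 40.8%), beside 11.1% and 15.3%. The cyclic AMP core TGACG, which the full element contains, stood in 39 (48.8%) beside 23.4% and 29.6%. The full element TGACGTCA stood in 5 (6.25%) beside 2.48% and 3.20%. AAGATGG, the core bound by YY1, stood in 10 (12.5%) beside 6.25% and 6.52%. For TCTCGCGA, the ETS core, TGACG and AAGATGG, the interval of the members lay above the share of genes with peaks, as it did for the pyrimidine initiator described next. For the SP1 box GGGCGG it lay below. For AAGATGG the lower bound, 6.93%, was close to the share of 6.52%, as for the initiator with 9.75% beside 9.35%. Several words contain CpG, and their shares among CpG-rich genes were not counted. The intervals cover counting error only.

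The SP1 box GGGCGG stood in 48.8% of members (interval 38.1% to 59.5%), 44.8% of all promoters and 61.3% of those with peaks. The NF-Y box CCAAT stood in 31.2% of members, 38.7% of all promoters and 37.7% of those with peaks. For the E-box CACGTG, which MYC binds, the shares were 11.2%, 7.80% and 9.73%. The NRF1 site was found in 1 member promoter, that of Rpl37a (1.25%), and in 1.21% of all. TGTCGCGA, which differs from the first element at 1 base, was found in 0 of 80 member promoters (upper bound of the interval 4.58%) and in 0.287% of all. TATAAA stood in 10% of members, 12.5% of all and 7.38% of genes with peaks. The pyrimidine initiator, a C within 2 bases of the annotated start followed by at least 4 pyrimidines, was found in 13 members (16.2%, interval 9.75% to 25.8%), 8.88% of all genes and 9.35% of those with peaks. Within 20 bases of the start, a reach chosen after the data were seen, it was found in 72.5% and 49.3%.

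**Figure D4:**
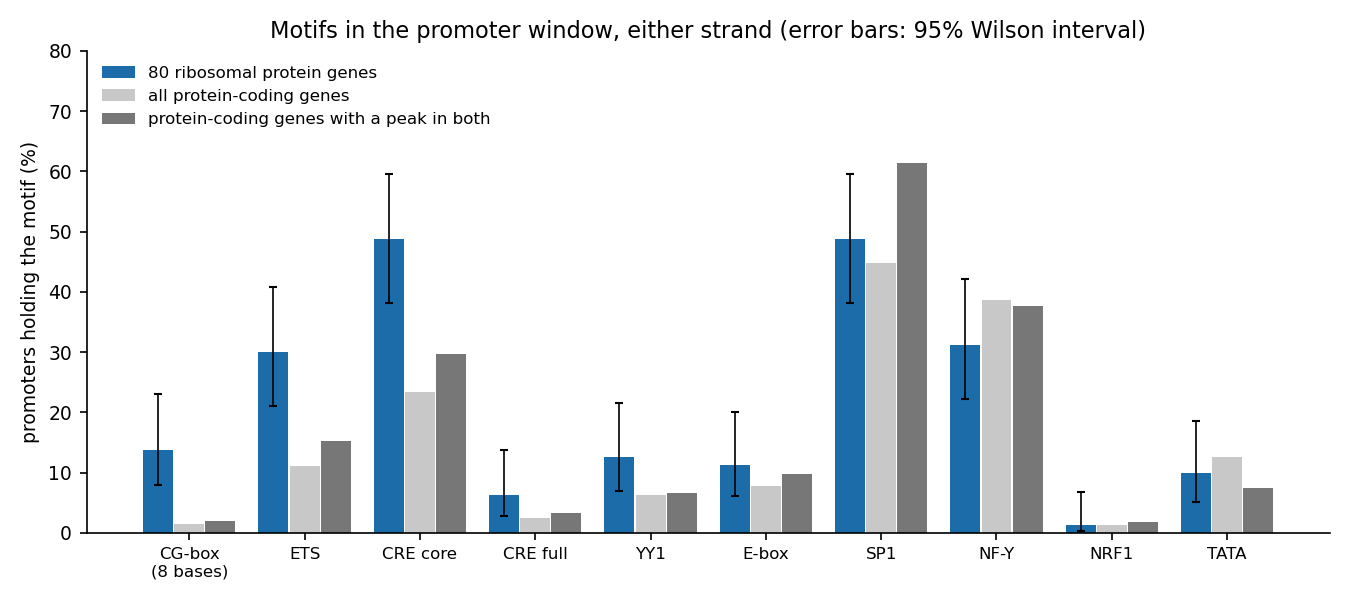
Share of promoters (y axis, %) that hold each motif (x axis) in the window from 250 bases before to 50 bases after the main start. Blue bars are the 80 ribosomal protein genes with 95% Wilson intervals, light grey bars all protein-coding genes and dark grey bars those with a peak in both libraries; CG-box stands for the 8-base element of the first printed set, at 13.8% beside 1.39% and 1.91%, and ETS is at 30% beside 11.1% and 15.3%.

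The words were also counted around the peaks. Within 100 bp of the centre of the tallest peak, TCTCGCGA stood in 13 of the 77 members (16.9%) in each library, beside 1.91% and 1.97% of all genes with peaks. The ETS core stood in 30 (39.0%) beside 15%. The cyclic AMP core TGACG stood in 31 (40.3%) beside 26.9% and 27%. AAGATGG stood in 14.3% beside 4.87% and 4.97%. TATAAA stood in 9.09% and 7.79% of members beside 2.78% of all genes with peaks. In the promoter window it stood in 10% of members, beside 7.38% of genes with peaks and 12.5% of all promoters. Among the 13 members with TCTCGCGA were Rpl7a, Rpl10a, Rpl12, Rpl17, Rpl23a, Rpl27a, Rps6, Rps7, Rps15a, Rps19 and Rps28. The median heights of the 13 were 13.8 and 19.9, beside 9.80 and 15.6 in the other 64. They reached from 3.49 at Rpl23a to 21.8 at Rpl7a in replicate 1, over almost the whole range of the members.

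Many of these matches overlapped a footprint in some or all of their bases, in the members as in other open promoters. Of 20 TCTCGCGA matches in member peaks, 15 (75%) were covered in replicate 1 and 17 (85.0%) in replicate 2, beside 85.2% and 84.8% in all genes, with the palindrome counted once for each strand. Of the ETS cores 54.3% and 63.9% were covered, beside 60.2% and 66.7%. Of the 6 full cyclic AMP elements 5 were covered in both libraries, where all genes had 94.9% and 94.7%. The few TATAAA matches were covered more often than in all genes, 7 of 9 in replicate 1 and 7 of 7 in replicate 2, beside 45.4% and 47.3%. AAGATGG was covered at 2 of 11 matches in replicate 1 and 5 of 10 in replicate 2, beside 43.6% and 49.9%.

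Members that hold a word were not always taller than those that lack it. With GGGCGG in the promoter window, 38 members had medians of 13.7 and 20.2, and 39 without it had 9.40 and 14.2. All genes with peaks moved the same way, from 5.05 and 7.5 without it to 8.52 and 12.8 with it. For the ETS core the promoter window gave 10.8 and 16.8 with it and 10 and 15.6 without it. Counted within the tallest peak, the 29 members with the core were lower, at 9.04 and 12.5, than the 48 without it, at 11.5 and 17.1. The direction for the ETS core thus depended on the window.

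The members share other features that the rule did not use. They were short genes, with a median length of 3328 bp beside 17425 bp in all protein-coding genes. A total of 29 members (36.2%) held a small nucleolar RNA gene within their bounds, 56 such genes in all, against 1.18% of protein-coding genes. Of the lists described below, 9 of 29 translation factors and 2 of 7 ribosomal genes outside the naming rule held one. So did 4 of 31 ribosome assembly genes, 1 of 14 genes of the TOR list and none of the mitochondrial ribosomal protein genes. The trait was thus not seen in the members alone. Rpl4 held 5, and Rpl13a held 4. Small nucleolar RNAs guide the modification of ribosomal RNA and are cut from introns. Hosts and other members had close medians, 11 and 16.3 for the 29 hosts and 10.2 and 15.9 for the 48 members with peaks that held none. The members lay on 19 chromosomes, with 14 on chromosome 7, where 9.22% of all protein-coding genes lie, and 7 on each of chromosomes 11 and 17.

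A neighbouring start can lend its peak to a member. Of the members 12 (15%) had the start of another protein-coding gene within 1 kb on the opposite strand, beside 9.96% of all genes. For 9 of the 77 members the centre of the tallest peak was nearer to the start of another gene in a library (11.7%, beside 9.25% of all genes and 11% of the CpG-rich genes). They were Rpl4, Rpl7a, Rpl9, Rpl12, Rpl15, Rpl18, Rps25, Rps27 and Rps27a. The remaining 68 had medians of 10.3 and 16.0, close to the 10.5 and 16.1 of all 77. Repeated sequence limits some heights too. In 9 of the 80 members (11.2%) under 90% of the promoter's 32-base words were unique in the genome, among them Rps29 (58%) and Rpl37a (69.5%), beside 14.2% of all genes and 3.77% of the CpG-rich genes. How the authors placed reads with several matches is not given in the sources used here, so heights of these genes are less certain. Across the members, height and uniqueness had a Spearman's rho of 0.02 (77 genes).

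The pseudogenes themselves were mostly closed. Of 300 genes with a ribosomal symbol ending in -ps and a number, 30 (10%) had a peak within 1 kb in replicate 1 and 33 (11%) in replicate 2. All 9940 processed pseudogenes had 8.57% and 9.37%. Medians of the ribosomal pseudogenes with a peak were 0.878 and 1.11, far below the members. The tallest were Rpl29-ps2 (9.43 and 9.02), Rps15a-ps2 (7.64 and 8.22) and Rpl38-ps1 (5.51 and 8.46), named after their values were seen.

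Other genes of the pathway were open as well. The 7 ribosomal genes outside the naming rule had medians of 15.9 and 22.8. Among them Rpl22l1 had 18.8 and 29.4, and Fau had 16.3 and 25.8. The lowest was Rack1, a scaffold on the small subunit, with 6.21 and 11.2. All 29 translation factors had peaks in both libraries, with medians of 13.5 and 20.6, and 13 (44.8%) were in the top 10% of genes in both, beside 20% of the members. Eif5a, which helps ribosomes through proline-rich stretches, had 26.8 and 47.6, above every ribosomal protein gene. Eef1a1, which delivers the aminoacyl-tRNA, had 11.3 and 15.8, close to the median member.

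All 31 ribosome assembly genes had peaks in both libraries, with medians of 9.66 and 13.3. Npm1, a nucleolar chaperone, had 22.0 and 30.5, and Pes1, needed to process the large-subunit RNA, had 3.67 and 4.98. The 14 genes of the TOR pathway and MYC family had medians of 10.8 and 16.7. Mtor had 10.3 and 13.2, Rps6kb1, the kinase of Rps6, had 21.5 and 34.8, Larp1 had 5.49 and 7.55, and Myc had 6.45 and 7.67. The 78 mitochondrial ribosomal protein genes, which serve a separate ribosome, had peaks throughout and medians of 8.67 and 13.4. They differed from the cytosolic set in their surroundings: 41.0% had a start on the opposite strand within 1 kb, beside 15%, and none held a small nucleolar RNA gene. All of these are counts and medians over lists, given side by side, and the lists' ranges overlapped.

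**Figure D5:**
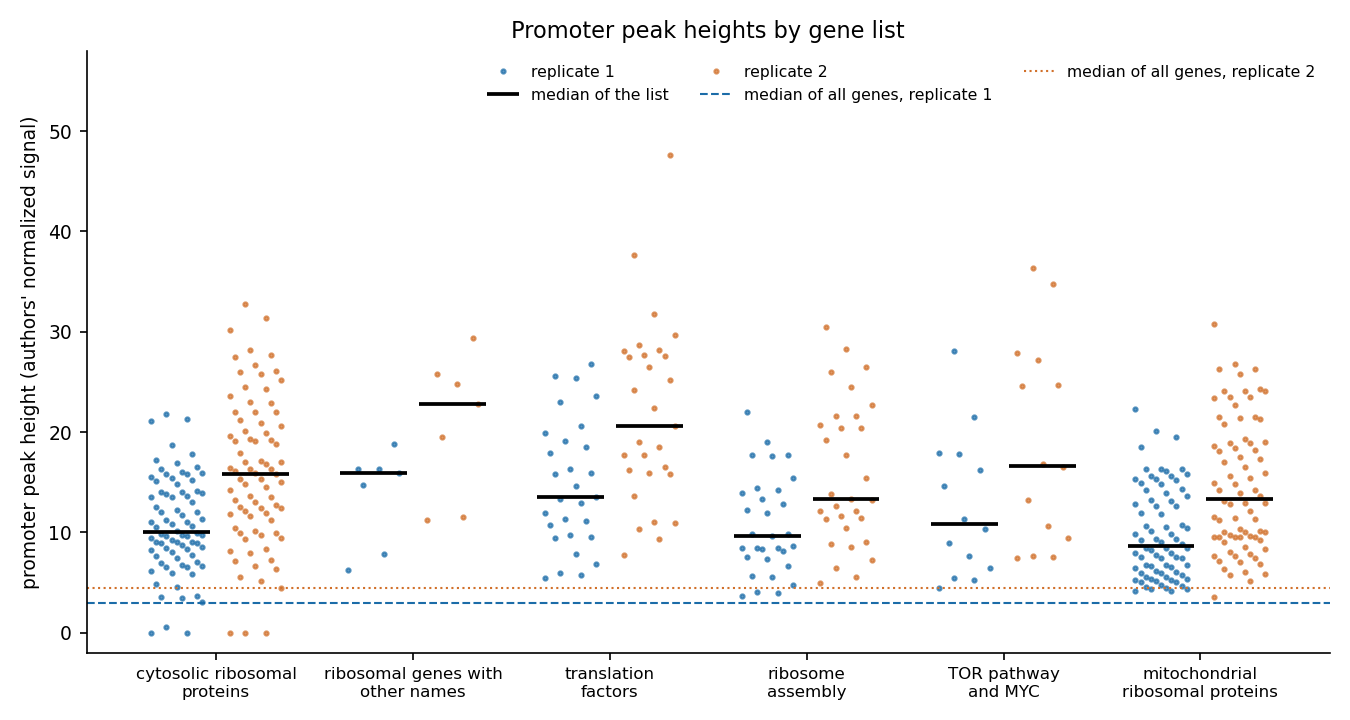
Height of the tallest promoter peak (authors' normalized signal, y axis) for the genes of each list (x axis), blue points for replicate 1 and orange points for replicate 2, with a black bar at the list's median and lines at the medians of all protein-coding genes. Translation factors have the medians 13.5 and 20.6, the cytosolic ribosomal proteins 10 and 15.9 and the mitochondrial ones 8.67 and 13.4.

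The labelled tissue was checked against its markers. The 4 cortex genes had peaks in both libraries, from Cyp21a1 (3.61 and 5.05) to Nr5a1 (6.62 and 11.7), as did the medulla genes Th (0.738 and 0.989), Dbh (1.00 and 1.14) and Chga (2.17 and 6.40). The liver genes Alb, Apoa1 and Ttr and the muscle genes Myh2 and Acta1 had none, and of the kidney genes Umod had none and Slc12a1 had 0.212 in replicate 2 only. Endothelial Flt1 had 4.39 and 6.62, Kdr 2.99 and 3.72, and Pecam1 0.83 in replicate 2 only. Macrophage Cd68 had 1.65 and 2.35 and Csf1r none, and the lymphocyte gene Lck had 0.891 in replicate 2 only. Their part in the heights of the ribosomal genes was not tested. In whole tissue, fewer cells of a type and less accessible DNA per cell cannot be told apart.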

How the data were processed

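Per the labels, the files are on mm10, and each comes from its own library. The name, version and settings of the aligner and the peak caller are each not given in the sources used here. Column 7 of the deposited peak lists was used as height; its unit is a signal, scaled by the authors in a way the sources do not state. The longer list of each library held 157595 peaks in replicate 1 and 166206 in replicate 2. Heights were whole multiples (within 0.05 steps) of 0.00934 and 0.00883 in 100% of peaks. Were 1 tag worth 1 step after scaling to 1000000 tags, an assumption that no source states, replicate 1 would hold near 107000000 tags and replicate 2 near 113000000. The number of reads was not analysed here, so the depth is otherwise unknown and a height has no counting interval. The authors' table of false discovery rates holds p-value-like numbers under 0.05, and the p-value column of the deposited footprint lists is constant, so footprints were not ranked.

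Genes and starts came from the basic set of GENCODE M21. A peak belonged to a gene if it reached within 1 kb of any TSS. The main start is the one shared by most transcripts and, on ties, the outermost of the tied starts. For Rpl17, Rps10, Rps14 and Rps25 it lay over 500 bp from the centre of the tallest peak. Their CpG ratio, promoter motifs and uniqueness were therefore read away from that peak. Tables were computed in Python 3.11.15 (pandas 2.3.3 and numpy 2.4.6), intervals and correlations with scipy 1.17.1, the uniqueness of 32-base words with numba 0.67.0, and plots with matplotlib 3.10.9. The steps were tested on simulated peaks and sequences. The alternatives were the shorter peak list, windows of 500 bp and 2 kb, the peak centre, the outermost start, another scaling, other motif windows and 1 library at a time. Of the ribosome assembly list 31 genes were found in the annotation.

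The members and lists were chosen with earlier results of these data known. Genes were named by this rule: the 6 tallest and 6 lowest by mean, those without a peak in a library, those on chromosome X, the paralogs and their partners, 12 examples of roles, and the 3 that were widest, most distant, richest in footprints or most different between the libraries in either direction. Further genes were named after their values were seen. Some genes counted among the members and lists are not reported here by name.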

Additional observations from a re-analysis of the deposited data

How the results depend on the processing

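Of 52 values recomputed under an alternative, 49 moved by less than the SD between the libraries, the 95% Wilson interval or, for counts, 1.5 times, and none changed direction. For most results, leaving out 1 of 2 libraries cannot move their mean by more than its SD, and another scaling cannot change a ratio within a library, so these alternatives test little. Without them 37 of 39 values moved by less than that. Members with a promoter peak in both numbered 77 with the shorter peak list, windows of 500 bp and 2 kb or the peak centre inside the window, and 76 with the outermost start alone. That start alone moved the median offset from -30.0 to -22.8 bp, the mean of the libraries. Leaving out 1 library gave ratios of the members' median height to that of all genes of 3.37 to 3.56, around the 3.42 of the mean. It gave 77 to 78 members with a peak, median heights of 10 to 15.9, offsets of -32.0 to -29.0 bp, a width of 200 bp and 4 to 5 footprints. The ratio to all genes was not among the values recomputed with other windows, but it depends on the window. The median of all genes, 2.97 and 4.46 with 1 kb, was 2.66 and 3.99 with 500 bp and 3.29 and 5 with 2 kb. The members' medians did not change, so the ratio was higher with 500 bp and lower with 2 kb. The pyrimidine initiator moved from 16.2% to 72.5% of members with a reach of 20 bases, because a longer reach tests more positions. The comparison with CpG-rich genes was added after the data were seen. No paired analysis was possible because there is 1 group. With 2 libraries, an SD rests on a single difference.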
